A study of Homo sapiens with 8 samples.

Results

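The 2-oxoglutarate dioxygenases that act on chromatin, DNA and RNA were followed through the 4 RNA libraries of UM-RC-2 cells. They were chosen by name, as 33 gene symbols from the Jumonji C (JmjC), TET and ALKBH families, out of 43682 symbols in the count tables. The rule uses family membership and no measured value, although earlier results of these data were known when it was written. All 33 were present and all 33 passed the filter on low counts. UM-RC-2 is an established human line of clear cell renal cell carcinoma that carries the VHL change p.Arg82Pro per the labels, in all libraries. Lines stably carrying either VHL or what the labels call VEC were made by lentiviral infection and selection in 10 µg/ml blasticidin. Each group had 2 libraries, numbered replicate 1 and replicate 2. The labels give total RNA as the molecule of both replicate 1 libraries and polyA RNA as that of both replicate 2 libraries, so VHL was compared with VEC within each number. Whether the numbers stand for separate cultures is not given in the sources used here, and the kind of RNA and the culture cannot be told apart.

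VHL is the substrate-binding part of a ubiquitin ligase that marks the alpha subunits of hypoxia-inducible factors (HIF) for degradation once they are hydroxylated. That hydroxylation, and the reactions of all the enzymes described here, use molecular oxygen and 2-oxoglutarate, need iron and release succinate. Most of the JmjC enzymes described here oxidise methyl groups on histone lysines. The TET enzymes oxidise 5-methylcytosine in DNA, and the ALKBH enzymes with FTO remove or modify alkyl groups on DNA, RNA or protein. KDM3A, KDM4B and KDM4C are textbook targets of HIF, and KDM5C and KDM6A are among the chromatin genes mutated in clear cell renal carcinoma.

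The introduced gene followed the labels. Levels are given as CPM, counts scaled to the TMM-adjusted library size, with VEC before VHL. The VHL gene was at 37.1 and 146 CPM in the replicate 1 pair and at 88.9 and 151 CPM in the other pair. CA9, a carbonic anhydrase and HIF target, was at 67.5 and 1.55 CPM in replicate 1 and at 61.8 and 1.40 CPM in replicate 2. Libraries held between 16230291 and 50027348 counts, of which the members took between 29929 and 48310. The replicate numbers stood apart: over 21673 genes averaging 20 counts or more, log2(CPM + 1) on unadjusted library totals correlated at r = 0.502 (VEC) and r = 0.531 (VHL) from one number to the other, against 0.991 and 0.978 within the pairs. Pseudogenes held 1.37% and 2.07% of replicate 1 counts, and 31.3% and 24.9% of those of replicate 2. The 81 replication-dependent histone genes, whose mRNAs lack poly(A) tails, held 0.501% and 0.428% of replicate 1 counts, and 0.0100% and 0.00770% of those of replicate 2. Among the renal carcinoma markers, PAX8, CDH6, VIM, KRT8 and KRT18 were above 10 CPM in every library. PAX2 was at 1.34 and 1.18 CPM in the replicate 1 pair and at 9.28 and 5.66 CPM in the other, and NNMT had 0 counts in replicate 1 and at most 1.27 CPM in replicate 2. Endothelial markers summed to at most 0.0864 CPM and fibroblast markers to at most 1.62 CPM. Immune markers summed to between 11.7 and 87.5 CPM, of which CD68 and, in replicate 2, LYZ gave nearly all, while CD3E and HLA-DRA were at 0.

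Of the 33 dioxygenases, KDM3A and ALKBH5 fell in VHL cells and none rose. A gene was called when its Benjamini-Hochberg adjusted p was under 0.05 in edgeR's quasi-likelihood test with the replicate number as a block. Across all 24417 genes tested, 3.10% were called (756), 2.35% as lower and 0.749% as higher in VHL. The members' share of lower calls was 6.06% (2 of 33). KDM4B and KDM4C were also lower in both pairs by at least 0.5 on the log2 scale but were not called. These 4 were the members lower by that much in both pairs, where 5.79% of all genes were, and no member was higher by as much in both pairs, where 3.07% of all genes were. The members as a family had no common direction: their median fitted log2 change was -0.03 (quartiles -0.25 and 0.19), beside -0.03 for all genes (quartiles -0.34 and 0.23). The change was negative in both pairs for 11 members, positive in both for 8 and of opposite sign for 14. Of all 24417 genes tested, the same counts were 8759, 5558 and 9799, so the members split much as all genes did. With group as the only term, 0 members and 0 genes of any kind were called in edgeR, 0 members and 22 genes had an unadjusted p under 0.05, and the adjusted p of every member was 0.999991.

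**Figure D1:**
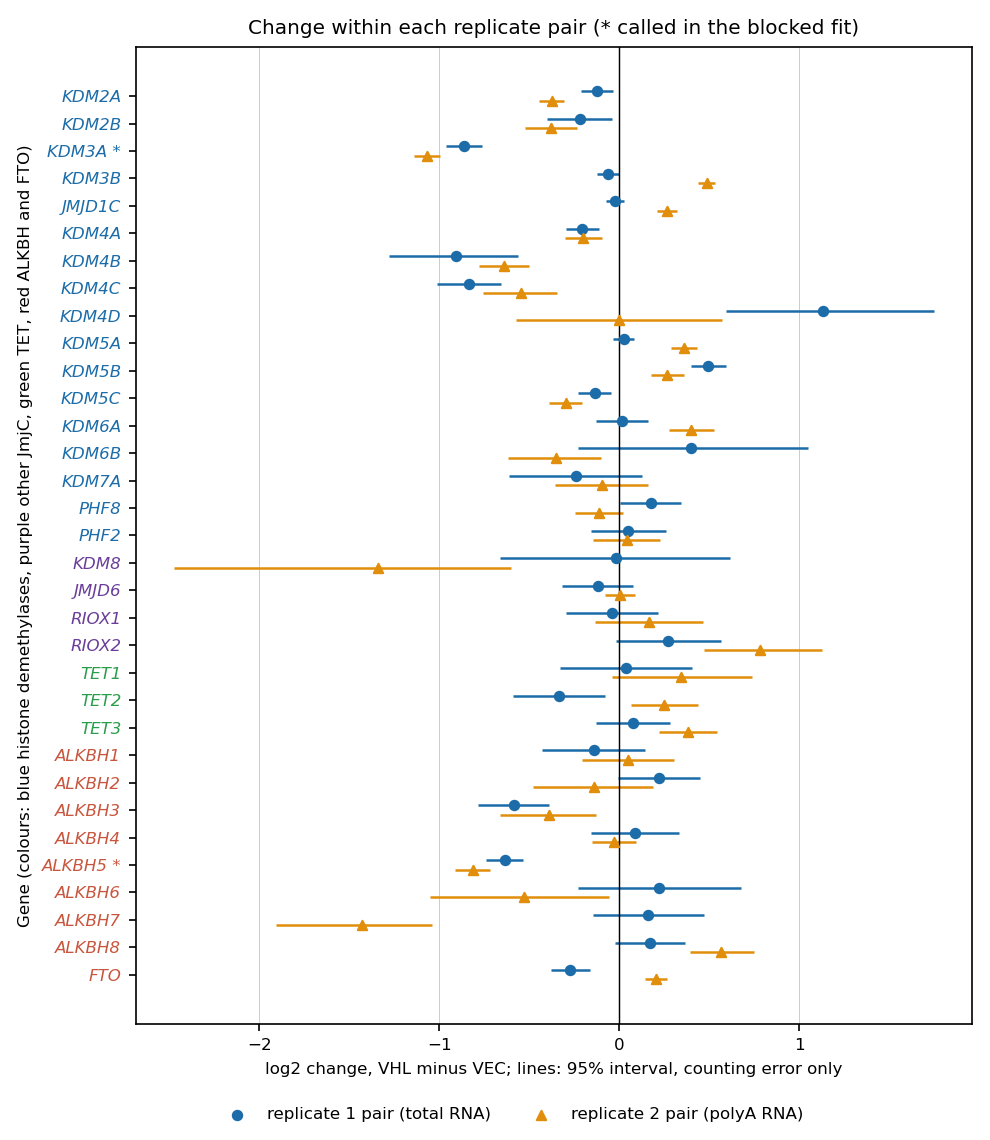
The log2 change from VEC to VHL of each of the 33 genes is plotted for the replicate 1 pair (circles, total RNA) and the replicate 2 pair (triangles, polyA RNA), with lines for the 95% interval of counting error alone. KDM3A, KDM4B, KDM4C and ALKBH5 lie left of -0.5 in both pairs, while most other genes lie near 0 or differ between the pairs.

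The 95% interval of the pair ratio, exact binomial and covering counting error only, lay below 0 in both pairs for 9 members: KDM2A, KDM2B, KDM3A, KDM4A, KDM4B, KDM4C, KDM5C, ALKBH3 and ALKBH5. It lay above 0 in both pairs for KDM5B alone. For 8 members neither interval left 0 out, and for 12 members the intervals of the pairs did not overlap. These intervals were computed for listed genes only, so no share over all genes stands beside these numbers. They narrow as counts grow, so whether 0 is left out depends in part on depth. The fitted standard errors (SE) were between 0.21 and 0.56. They rest almost wholly on a spread shared across genes and do not follow a gene's own difference between the pairs. KDM4A, with -0.20 in both, had an SE of 0.21, and FTO, with -0.27 and 0.20, one of 0.22.

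KDM3A, which removes mono- and dimethyl groups from lysine 9 of histone H3, showed the clearest change. Its counts were 2528 (VEC) and 1121 (VHL) for replicate 1, then 5228 and 2232 for replicate 2, or 109, 60.1, 115 and 54.6 CPM. Both VHL libraries lay below both VEC libraries, across the kinds of RNA, as they did for KDM7A, which was not called. How many of all genes do so was not computed. Its log2 change was -0.86 in pair 1 and -1.07 in pair 2, with a fitted value of -0.97 ± 0.22 (SE, n = 2 per group, edgeR adjusted p = 0.000817). It ranked 250 by p-value among all genes. The call held in each of the 5 alternative fits that kept the block, with adjusted p-values between 3.67e-07 and 0.00292. The fit without the block gave -0.96 ± 0.45 (edgeR adjusted p = 0.999991). The KDM3A pseudogene KDM3AP1 had 0 counts in replicate 1 and 178 (VEC) and 76 (VHL) in replicate 2; how reads were divided between them is not given in the sources used here.

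KDM3B and JMJD1C, the other KDM3 genes among the members, did not follow KDM3A. KDM3B, a demethylase of the same histone residue, was at 212 and 203 CPM in replicate 1 and at 131 and 184 CPM in replicate 2. Its log2 changes were -0.06 and 0.49, with a fitted 95% interval of -0.24 to 0.67. JMJD1C, a family member whose demethylase activity is debated, was at 305 and 301 CPM in replicate 1 and at 116 and 139 CPM in replicate 2. Its log2 changes were -0.02 and 0.27, and the fit gave 0.12 ± 0.23 with an interval of -0.34 to 0.58. JMJD1C, KDM3B and KDM5A had the highest counts of the 33, with means of 5908, 5543 and 3886 per library, although counts also grow with transcript length. The difference in response between KDM3A and these genes was not tested.

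The KDM4 enzymes remove tri- and dimethyl groups from lysines 9 and 36 of histone H3. KDM4B had 220 and 94 counts in replicate 1 and 1193 and 686 in replicate 2, or 9.50, 5.04, 26.2 and 16.8 CPM. It was lower in VHL within each pair, but VHL of replicate 2 lay above VEC of replicate 1. Its log2 changes were -0.91 and -0.64 and its fitted change was -0.76 ± 0.27 (SE, n = 2 per group, edgeR adjusted p = 0.116). KDM4C had 832 and 376 counts in replicate 1 and 522 and 319 in replicate 2, or 35.9, 20.2, 11.4 and 7.81 CPM. Here too the pairs moved the same way while the groups overlapped across the kinds of RNA. The changes were -0.83 and -0.55, and the fit gave -0.69 ± 0.25 (SE, n = 2 per group, edgeR adjusted p = 0.122).

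Both KDM4B and KDM4C were called, as lower, in 3 of the 5 alternative fits with the block. KDM4B had adjusted p-values of 0.0269 under the stricter count filter, 0.0221 in DESeq2's Wald test and 0.0333 when protein-coding genes alone were tested in edgeR. KDM4C had 0.0389, 0.0121 and 0.0451 in the same order. In each of these fits 4 members were called, all lower, where 5.86%, 2.97% and 4.63% of all genes tested were called lower. With DESeq2 size factors in edgeR 2 members were called (3.25% of genes called lower), and with no filter KDM3A alone was (1.58%). Leaving out a library forces a comparison across the kinds of RNA: KDM4B turned to 0.24 without VEC replicate 2 and KDM4C to 0.29 without VEC replicate 1.

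KDM4A and KDM4D, of the same family, were not called in any of these fits, although DESeq2 gave KDM4D no adjusted p. KDM4A was at 100.7 and 87.4 CPM in replicate 1 and at 38.0 and 33.1 CPM in replicate 2, a log2 change of -0.20 in each pair. Its fitted 95% interval was -0.62 to 0.21, which leaves out a fall as large as the fitted change of KDM3A. It overlaps the interval of KDM3A, -1.39 to -0.54, and the difference was not tested. KDM4D, an intronless testis-associated gene, had 41 and 74 counts in replicate 1 and 57 and 51 in replicate 2. At that depth its fitted interval was -0.36 to 1.51, and the pairs gave 1.14 and 0.00.

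**Figure D2:**
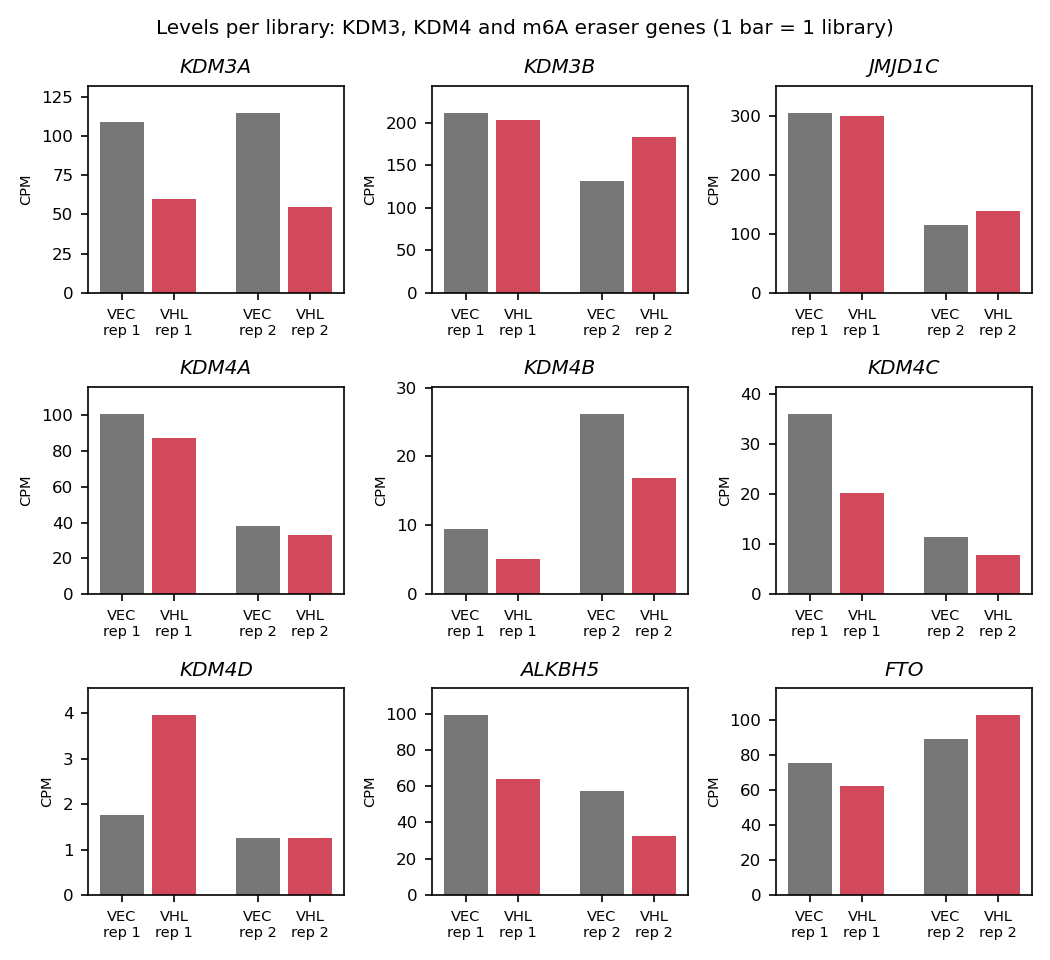
Each panel plots the CPM of 1 gene in each library (1 bar per library, grey for VEC and red for VHL, linear axis from 0). KDM3A, KDM4B, KDM4C and ALKBH5 have a lower VHL bar in both pairs, KDM4A differs by -0.20 in both, and FTO changes direction between the pairs.

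The promoter windows of the 4 members that were lower by at least 0.5 in both pairs are shown. These genes were picked by those changes, and 3 of them are named HIF targets in textbooks. Whether they changed together was not tested. For KDM3A, which has 2 windows, only the first is shown. The sequences were taken from RefSeq on GRCh38.p14, from 250 bases before to 50 after the annotated start, and run 5′ to 3′. The windows were matched by symbol and are on another build than the hg19 counts. Capitals mark the core of the hypoxia-response element, ACGTG or GCGTG, on either strand (read as CACGT or CACGC on the strand shown). A palindromic CACGTG, which is also the E-box, counts as ACGTG on both strands.

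KDM3A, chr2:86441121-86441420, plus strand: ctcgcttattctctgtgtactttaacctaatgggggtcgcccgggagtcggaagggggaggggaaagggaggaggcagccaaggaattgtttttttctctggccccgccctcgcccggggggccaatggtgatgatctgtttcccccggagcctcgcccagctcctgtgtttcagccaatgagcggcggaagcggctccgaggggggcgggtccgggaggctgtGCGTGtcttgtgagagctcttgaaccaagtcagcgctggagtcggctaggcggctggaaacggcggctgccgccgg

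KDM4B, chr19:4968863-4969162, plus strand: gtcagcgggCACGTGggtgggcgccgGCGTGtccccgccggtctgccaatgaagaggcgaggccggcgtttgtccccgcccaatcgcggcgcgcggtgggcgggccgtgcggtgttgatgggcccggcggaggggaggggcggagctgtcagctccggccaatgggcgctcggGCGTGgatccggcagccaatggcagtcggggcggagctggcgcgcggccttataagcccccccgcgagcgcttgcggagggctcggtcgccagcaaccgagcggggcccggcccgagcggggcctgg

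KDM4C, chr9:6757723-6758022, plus strand: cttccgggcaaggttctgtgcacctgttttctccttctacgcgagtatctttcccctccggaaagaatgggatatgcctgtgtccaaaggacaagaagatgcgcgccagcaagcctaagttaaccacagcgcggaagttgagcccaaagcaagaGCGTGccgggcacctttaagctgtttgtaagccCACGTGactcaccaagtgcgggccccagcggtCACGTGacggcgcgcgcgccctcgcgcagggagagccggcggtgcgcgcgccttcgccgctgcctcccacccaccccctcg

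ALKBH5, chr17:18183578-18183877, plus strand: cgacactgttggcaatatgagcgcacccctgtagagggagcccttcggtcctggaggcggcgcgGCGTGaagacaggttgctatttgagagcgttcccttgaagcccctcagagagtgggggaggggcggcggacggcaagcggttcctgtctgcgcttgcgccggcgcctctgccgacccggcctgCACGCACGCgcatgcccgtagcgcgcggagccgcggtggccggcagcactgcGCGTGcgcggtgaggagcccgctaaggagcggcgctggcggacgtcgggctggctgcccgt

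KDM3A had 1 match (GCGTG) in this window, KDM4B 2 of each core, KDM4C 4 of ACGTG and 1 of GCGTG, and ALKBH5 4 of GCGTG. KDM4B held 1 CACGTG and KDM4C 2. A match is common: 48.4% of all 35116 promoter windows of 300 bases held at least 1 of these cores, as did at least 1 window of 22 of the 30 members with an entry (73.3%, beside 52.4% of all genes). Taken separately, ACGTG was in 21.4% of windows and GCGTG in 36.5%. Members that were not called also carried cores, such as TET3 with 4 ACGTG matches in its first window and KDM6A with 3, while FTO, KDM3B and PHF2 had none in theirs. The matches describe these letters only.

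KDM2A and KDM2B demethylate lysine 36 of histone H3 and bind unmethylated CpG islands. KDM2A was at 103 and 94.3 CPM in replicate 1 and at 85.8 and 66.2 CPM in replicate 2. KDM2B was at 27.04 and 23.2 CPM, then 20.9 and 16.1 CPM. Both were slightly lower in VHL within each pair, by -0.12 and -0.37 for KDM2A and by -0.22 and -0.38 for KDM2B, and neither was called (edgeR adjusted p = 0.777 and 0.740). The gene RNF34 overlaps KDM2B in RefSeq, and whether the counting used strand is not given in the sources used here. An overlapping gene model was present for 22 of the 33 members, among them KDM4C, whose span holds the pseudogenes SNRPEP2 and ACTG1P14, but not for KDM3A, KDM4B or ALKBH5.

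The KDM5 enzymes remove methyl groups from lysine 4 of histone H3, a mark of active promoters. KDM5B, the member higher in both pairs beyond counting error, was at 66.7 and 94.1 CPM in replicate 1 and at 40.9 and 49.2 CPM in replicate 2. Its changes of 0.50 and 0.27 gave a fitted value of 0.38 ± 0.21 (SE, n = 2 per group, edgeR adjusted p = 0.470), short of a call. KDM5A was at 222 and 226 CPM, then 63.1 and 81.1 CPM. Its changes were 0.03 and 0.36 and its fitted change was 0.19 ± 0.23 (edgeR adjusted p = 0.881). KDM5C, the X-linked gene of these 3, was at 99.5 and 90.6 CPM, then 51.2 and 41.7 CPM. Its changes were -0.13 and -0.30, with an adjusted p of 0.833 (edgeR). The 3 KDM5 genes therefore had fitted values on both sides of 0.

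KDM6A and KDM6B remove trimethylation of lysine 27 of histone H3, the mark laid down by Polycomb complex PRC2. KDM6A was at 38.7 and 39.1 CPM in replicate 1 and at 21.3 and 28.1 CPM in replicate 2, and its fitted change was 0.21 ± 0.22 (SE, n = 2 per group, edgeR adjusted p = 0.856). KDM6B, an inducible gene, had 42 and 45 counts in replicate 1 and 306 and 214 in replicate 2, with changes of 0.40 and -0.35. KDM7A, PHF8 and PHF2 share a PHD finger that reads methylated lysine 4 of histone H3 beside a JmjC domain. All 3 had fitted changes near 0, of -0.17, 0.03 and 0.05. For PHF2, with 351 to 500 counts per library, the pairs gave 0.05 and 0.04, and for KDM7A -0.24 and -0.10.

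The other JmjC proteins among the members were KDM8, JMJD6, RIOX1 and RIOX2, none of which was called. JMJD6, which hydroxylates lysines of splicing factors, was at 21.4 and 19.7 CPM in replicate 1 and at 53.8 and 54.0 CPM in replicate 2. Its fitted 95% interval of -0.48 to 0.37 was narrow. RIOX2, a ribosomal oxygenase found in the nucleolus, was at 8.55 and 10.3 CPM, then 2.83 and 4.92 CPM, with changes of 0.27 and 0.79 (edgeR adjusted p = 0.567). RIOX1, its relative, gave -0.04 and 0.16. KDM8 had the fewest counts of all members, 49 and 39 for replicate 1, then 44 and 14 for replicate 2. The fitted interval of KDM8, -1.77 to 0.42, was the widest among these 4.

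The TET enzymes, which start the removal of DNA methylation, were not called. TET1 was at 6.05 and 6.22 CPM in replicate 1 and at 2.32 and 2.96 CPM in replicate 2, with a fitted change of 0.19 ± 0.37. TET3 was at 18.4 and 19.4 CPM, then 12.8 and 16.7 CPM, and its fitted change was 0.23 ± 0.26. TET2 was at 14.4 and 11.4 CPM in replicate 1 and at 10.1 and 12.0 CPM in replicate 2. Its direction differed between the pairs (-0.33 and 0.25), and the fit gave -0.03 ± 0.28. The fitted 95% intervals of the 3 genes ran from -0.58 to 0.92 in all, so changes of 1 or more on the log2 scale lay outside them.

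ALKBH5, which removes the methyl group of N6-methyladenosine in RNA, was the other called member. Its counts were 2296 (VEC) and 1190 (VHL) for replicate 1, then 2625 and 1336 for replicate 2, or 99.2, 63.8, 57.6 and 32.7 CPM. It was lower in VHL within both pairs, although VHL of replicate 1 lay above VEC of replicate 2. The log2 changes were -0.64 and -0.81 and the fitted change -0.73 ± 0.21 (SE, n = 2 per group, edgeR adjusted p = 0.0274). The call held in 4 of the 5 alternative fits with the block and was lost with no filter on low counts (edgeR adjusted p = 0.0603). Without the block, the value was -0.70 ± 0.66 (edgeR adjusted p = 0.999991), and leaving out 1 library there moved it between -1.26 (without VHL replicate 1) and -0.25 (without VEC replicate 1).

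FTO, the other eraser of N6-methyladenosine, did not move with ALKBH5. It was at 75.7 and 62.7 CPM in replicate 1 and at 89.5 and 103 CPM in replicate 2, changes of -0.27 and 0.20. The fitted 95% interval of FTO, -0.45 to 0.39, leaves out a fall of the size fitted for ALKBH5. It overlaps the interval of ALKBH5, however, which was -1.14 to -0.31. The difference between the erasers was not tested.

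Among the remaining ALKBH genes, ALKBH3, which repairs alkylated bases in nucleic acids, came closest to a fall. It was at 26.3 and 17.5 CPM in replicate 1 and at 6.36 and 4.85 CPM in replicate 2, with changes of -0.58 and -0.39 and a fitted value of -0.49 ± 0.27 (SE, n = 2 per group, edgeR adjusted p = 0.482). ALKBH2, a DNA repair enzyme of the same kind, gave 0.22 and -0.14. ALKBH7, a mitochondrial protein, had 185 and 167 counts in replicate 1 but 188 and 61 in replicate 2. Its changes of 0.16 and -1.43 lay far apart, and it was not called (fitted -0.61 ± 0.36, edgeR adjusted p = 0.529). ALKBH8, which modifies the wobble base of transfer RNA, was at 19.8 and 22.3 CPM, then 9.98 and 14.8 CPM (fitted 0.37 ± 0.26). ALKBH1, ALKBH4 and ALKBH6 had fitted changes of -0.04, 0.03 and -0.15. The sign of ALKBH4 flipped in 3 of the 5 blocked alternatives and that of PHF8 in 2.

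For each member except KDM3A and KDM7A, the difference in level between the replicate numbers was larger in size than the fitted change from VEC to VHL. Mean log2 CPM was lower in replicate 2 for 28 of the 33 members, most for ALKBH2 (-2.12), ALKBH3 (-1.95) and KDM8 (-1.87). It was higher for KDM4B (1.60), KDM6B (1.503), JMJD6 (1.39), ALKBH4 (0.95) and FTO (0.48). These values describe 2 libraries of each number, and the larger share of pseudogene counts in replicate 2 moves with them. Its part in them was not tested. KDM3A and KDM7A were alone among the members in having both VHL libraries below both VEC libraries on this scale. The share of all genes that separate in this way was not computed. The fitted change of KDM7A was -0.17 (edgeR adjusted p = 0.959).

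**Figure D3:**
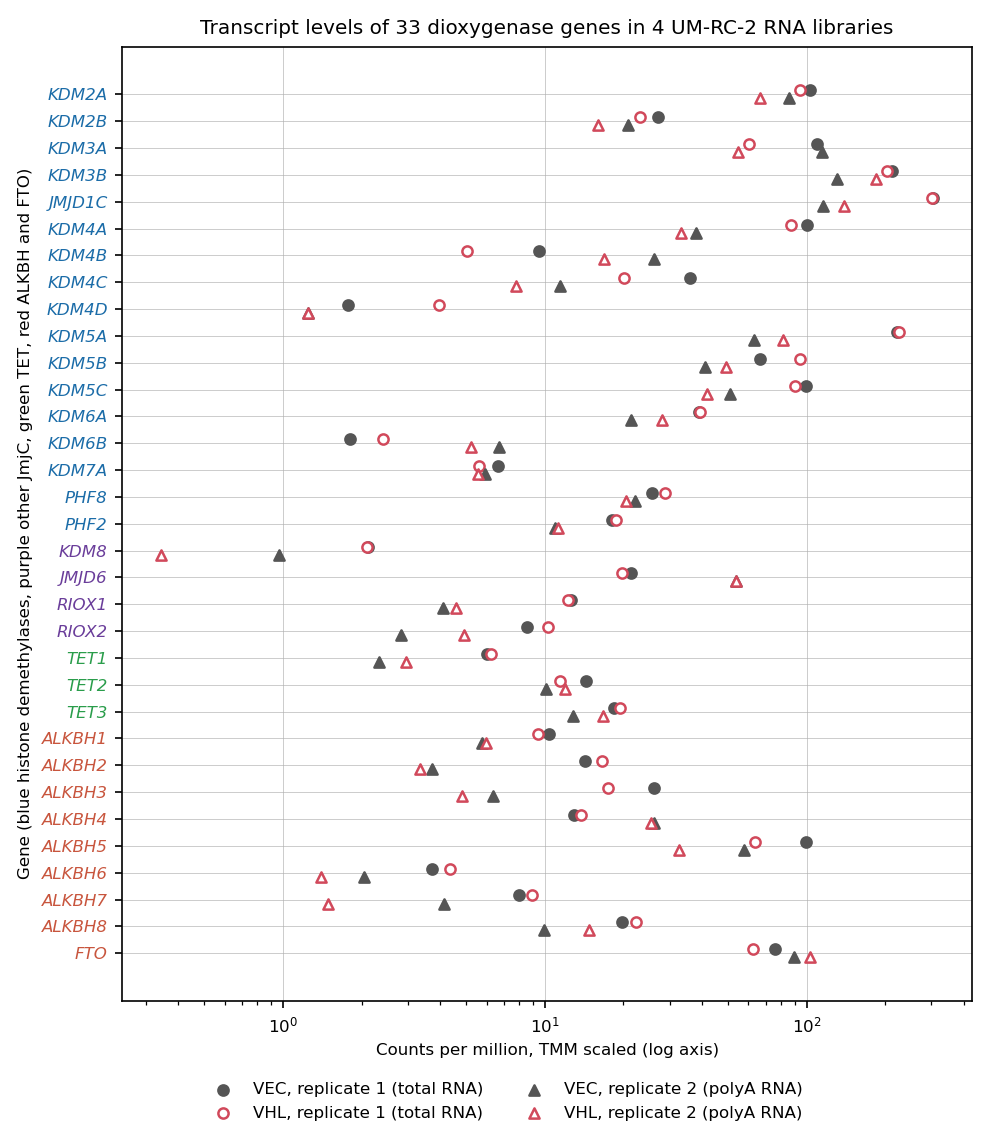
The TMM-scaled CPM of each of the 33 genes is plotted on a log axis for the 4 libraries (filled for VEC, open for VHL, circles for replicate 1, triangles for replicate 2). Most genes have their circles to the right of their triangles. KDM3A has both open symbols, at 60.1 and 54.6 CPM, left of both filled ones, as does KDM7A, at 5.63 and 5.56 CPM.

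Other human 2-oxoglutarate dioxygenases, which act mainly on HIF, collagen and metabolites, gave more calls. Their list also holds JmjC proteins outside the members, such as JMJD4, JMJD7, JMJD8 and HR, which were not called in the main fit. Of 30 listed, 26 were tested, 6 fell (23.1%) and 0 rose, with a median fitted change of -0.37 beside the 2.35% and -0.03 of all genes. The HIF prolyl hydroxylase EGLN3 went from 77.5 to 20.3 CPM and from 63.0 to 16.0 CPM, and EGLN1 from 296 to 119 and from 256 to 139 CPM. Among collagen prolyl hydroxylases, P4HA1 went from 565 to 163 CPM and from 177 to 66.4 CPM, and P4HA2 changed by -1.74 and -0.85. The collagen lysyl hydroxylases PLOD1 and PLOD2 had fitted changes of -1.48 ± 0.24 and -1.31 ± 0.24 (SE, with 2 libraries per group; adjusted p = 1.24e-07 and 1.26e-05 in edgeR). Each of these 6 changed by more than KDM3A in the fit. HIF1AN, the asparaginyl hydroxylase of HIF, stayed at 44.9 and 48.0 CPM and at 159 and 153 CPM (fitted 0.02 ± 0.22). EGLN2 had at most 1 count in any library and was not tested. No test compared the lists, and the JmjC, TET and ALKBH genes cannot be called different from them on these counts.

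**Figure D4:**
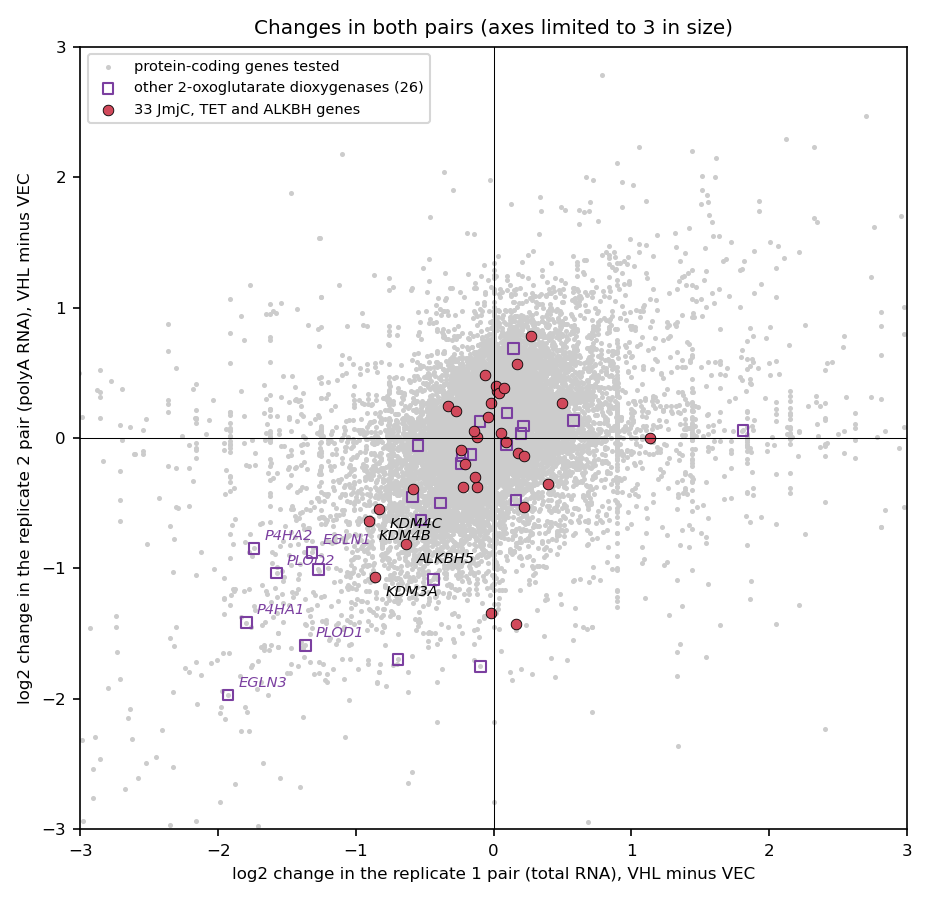
The log2 change in the replicate 1 pair is plotted against that in the replicate 2 pair for protein-coding genes (grey), the 33 members (red) and 26 other 2-oxoglutarate dioxygenases (purple squares), with axes limited to 3 in size. KDM3A, KDM4B, KDM4C and ALKBH5 lie in the lower left, nearer to 0 than EGLN3, P4HA1, PLOD1 and PLOD2. Most other members lie closer to the origin. Far from it in a single pair are ALKBH7 and KDM8, at -1.43 and -1.34 in the replicate 2 pair, and KDM4D, at 1.14 in the replicate 1 pair.

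Across the 33 members the changes of the 2 pairs correlated at r = 0.361 (Spearman's rho = 0.357), beside r = 0.410 over 13908 protein-coding genes. This is a description across genes, which share libraries and are not independent.

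Genes that make or remove the cosubstrate and its competitors were mostly not called. Of 34 tested genes of 2-oxoglutarate, succinate, fumarate and 2-hydroxyglutarate metabolism, 1 fell and 1 rose (median fitted change -0.05), and 8 had an unadjusted p under 0.05. Of all 24417 genes, 2.35% fell, 0.749% rose and 3050 had an unadjusted p under 0.05. Among the 34, the number called was 2 by DESeq2's Wald test, 4 in edgeR under the stricter filter and with protein-coding genes alone, and 1 with no filter. These settings called 4.93%, 9.7%, 7.15% and 1.95% of all their genes, in that order. LDHA, lactate dehydrogenase A, went from 1579 to 532 CPM and from 1881 to 618 CPM (fitted -1.59 ± 0.30, edgeR adjusted p = 1.79e-05). PSAT1, the serine-pathway aminotransferase that yields 2-oxoglutarate, went from 104 to 168 CPM and from 77.4 to 134 CPM (fitted 0.74 ± 0.22, edgeR adjusted p = 0.0324). The fitted changes of IDH1 and FH, at 0.19 ± 0.24 and -0.07 ± 0.23, were no larger than their SE. SDHA, a subunit of succinate dehydrogenase, changed by -0.34 and -0.75 and was not called (edgeR adjusted p = 0.17).

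In the edgeR fit over all genes with the block, the lists of enzymes that place the marks gave no calls, while other settings gave a few. Of all 24417 genes, 3.10% were called in that fit and 3050 had an unadjusted p under 0.05. The stricter filter called 9.7% of its genes and DESeq2's Wald test 4.93%. Lists this short cannot tell 0 calls from such shares. Of 28 tested histone methyltransferase and PRC2 genes 0 were called (3 at an unadjusted p under 0.05), with a median of 0.09; the stricter filter called 1 and DESeq2's Wald test 5. Of 21 RNA methylation writers and readers 0 were called (3 unadjusted, median 0.11); the stricter filter called 1 and DESeq2 3. In the same edgeR fit 0 were called for 13 genes of DNA methylation and its processing (2 unadjusted, 1 in DESeq2, median 0.02 but -0.02 in DESeq2) and for the flavin-dependent demethylases KDM1A and KDM1B (0 unadjusted, 0 in DESeq2). METTL3, the catalytic writer of the mark that ALKBH5 erases, changed by 0.00 and -0.02, and EZH2, the writer opposed by KDM6A and KDM6B, by 0.31 and 0.11. SETD2, PBRM1 and BAP1, which are mutated in clear cell renal carcinoma, had fitted changes of 0.36, 0.11 and -0.02, and among these with ARID1A and SMARCA4 0 of 5 were called in edgeR (1 unadjusted, 1 in DESeq2).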

How the data were processed

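RNA from 2 VEC and 2 VHL libraries of UM-RC-2 cells was analysed. The deposited values are the authors' raw counts per gene symbol from sorted hg19 alignments, per the file headers. The submitters' processing notes name featureCounts and HOMER without versions. The aligner, the annotation, whether strand was used and how multi-mapping reads were handled are not given in the sources used here. Samples were grouped by title. Counts were fitted in R 4.3.3 with edgeR 4.0.16 (filterByExpr, TMM, glmQLFit and glmQLFTest, two-sided, terms for replicate number and group, 1 residual degree of freedom), and Benjamini-Hochberg adjustment ran over all 24417 genes tested. SEs were derived from the fitted log2 change and its F statistic. Pair changes are differences of log2 CPM with a prior count of 2. The pairing rests on the molecule labels; deviations from the group means correlated at 0.983 within pairs. P-values of the blocked fits measure the disagreement between the replicate pairs, taken from a spread shared across genes. In the main fit a gene's own disagreement between the pairs had almost no weight. Those of the fits without the block measure the spread between libraries of a group. Either spread may be technical. Alternatives were group alone, DESeq2 size factors, no filter, a mean of at least 20 counts per pair, DESeq2 1.42.0, protein-coding genes alone (RefSeq classes, 97.8% of symbols matched) and leaving out libraries. The fits were tested on simulated data. Full values are given for members called, or changed by at least 0.5 in both pairs; the 3 with the highest counts are named also, and other lists are named by their calls. Members and lists were chosen with earlier results of these data known. H3K27ac tables, whose regions carry no positions, were not used here.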

Additional observations from a re-analysis of the deposited data

Results flagged for a closer look

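TET2 and FTO had pair changes of opposite sign, each with a 95% counting interval that left 0 out. TET2 changed by -0.33 (interval -0.59 to -0.08) in the total RNA pair and by 0.25 (0.06 to 0.44) in the polyA RNA pair. FTO changed by -0.27 (-0.38 to -0.16) and by 0.20 (0.14 to 0.27). The difference between the pairs was not tested, since each pair holds 1 library per group and the intervals cover counting error only. The pseudogene share fell from 31.3% to 24.9% between VEC and VHL of the polyA pair, and its part in these values was not tested.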

How the results depend on the processing

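The calls depended on the replicate block. Paired by replicate number, the fit called 756 genes, 2 members and 8 genes of the other lists together, and with no replicate block it called 0, 0 and 0. With 1 library left out and no block, the counts ranged from 0 to 0 for each of these, in fits where 1 group had a single library, assumed to vary like the other group. With the block kept, the stricter filter called 1227 genes, 4 members and 13 genes of the other lists, and DESeq2's Wald test 1203, 4 and 17. Protein-coding genes alone gave 4 members, and no filter gave 1. Of 165 fitted values of members with the block kept, 5 changed sign, in ALKBH4 and PHF8, neither of which was called. Of 132 values with 1 library left out, 48 changed sign, in 27 members; KDM3A and ALKBH5 were not among them. No leave-one-out fit kept the block, since it leaves no residual degree of freedom. Depth limited KDM8, KDM4D and KDM6B, each with fewer than 50 counts in a library.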

Other observations

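A few genes outside the report's comparison marked the replicate numbers. PHYHD1, a dioxygenase of the other list, was at 0.13 and 0.16 CPM in replicate 1 and at 44.4 and 47.3 CPM in replicate 2. LYZ, a macrophage and epithelial gene, had 0 and 1 counts in replicate 1 and 1989 and 1793 in replicate 2. KDM7A-DT, a noncoding gene beside KDM7A, had 15 and 1 counts in replicate 1 and 683 and 613 in replicate 2.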
